A study of Mus musculus with 1479 samples.

Results

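Cilp encodes cartilage intermediate layer protein, and its reads were followed here through the cells of the adult mouse urinary bladder. Cilp is 1 of the 46517 gene rows of the series, and its row was found by matching Ensembl identifiers to symbols. It was chosen by its levels over the fibroblast clusters of these same data, so those levels are given as a description, with no test.

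Cartilage intermediate layer protein is a large secreted glycoprotein of the extracellular matrix, first described in the middle zone of articular cartilage. It can bind transforming growth factor beta and insulin-like growth factor 1 and dampen their signals, and in the heart it is made by fibroblasts of the injured or overloaded wall. Fibroblasts are the cells that build and maintain the connective tissue matrix, whereas mural cells (pericytes and vascular smooth muscle cells) coat blood vessels.

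The 1479 cells came from bladders of male mice aged 10 to 20 weeks, and each cell was sorted into its own well and sequenced with SmartSeq2, a full-length method without molecular identifiers. The 5 lines were PdgfrbGFP, Cspg4dsRED and Acta2GFP (transgenes that place a fluorescent protein under the control of the named gene), PdgfraGFP (a knock-in of a nuclear green fluorescent protein at Pdgfra) and C57BL6, which carries no reporter and was sorted with antibodies. All lines were kept on the C57BL6/J background, sorted cells were positive for a reporter or a PDGF receptor antibody and negative for the endothelial protein CD31, and elastase was added when Acta2GFP bladders were dissociated. Combined reporter strains were also used in the study, and the labels do not mark them. The cells filled 6 plates in 8 combinations of plate and line, and the labels give each cell a cluster number from 1 to 11 but name no mouse, so a plate and line is the smallest labelled unit above the cell. A reporter line selects the cells in which its driver is active, so cluster makeup and line cannot be told apart for a cluster found mostly in 1 line.

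The number of endogenous reads per cell ran from 48455 to 1433402 (median 212483). Levels are given as reads per 500000 endogenous reads of the cell, averaged over the cells of a cluster on a plate and line (at least 3 cells), then as mean ± SD over plates and lines. The cluster labels were checked against marker genes. The summed level of 6 mural markers was 8655 in cluster 10 and between 46.2 (cluster 9) and 555 (cluster 5) in the others, and the summed level of 6 fibroblast markers was 1200 in cluster 10 and between 6903 (cluster 4) and 17219 (cluster 5) elsewhere. Cluster 10 is therefore called mural and the other 10 clusters fibroblast. By the methods of the study, cells without Pdgfra or Pdgfrb and cells with a clear endothelial, immune or similar contamination had already been removed. Low values of other cell types are therefore no independent check. Markers of immune, urothelial, glial and mesothelial cells each summed to a median of 0 over the 1354 fibroblast-cluster cells, with a highest cell between 48.4 (mesothelial) and 1243 (urothelial). The 4 endothelial markers summed to a median of 7.68 (highest cell 642), with means between 8.60 (cluster 5) and 52.96 (cluster 4) over the fibroblast clusters and 30.1 in cluster 8.

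Cilp (ENSMUSG00000042254) lies on the plus strand of mouse chromosome 9, at 65265180 to 65280605 in GRCm38, with 4252 bases of annotated exon and no overlapping gene in the GENCODE M21 annotation. The 250 bases before its RefSeq start site (GRCm38.p6, chr9:65264930-65265179, plus strand) are shown as the upstream sequence of the gene that the results are about, with a TATA motif in capitals.

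Cilp promoter: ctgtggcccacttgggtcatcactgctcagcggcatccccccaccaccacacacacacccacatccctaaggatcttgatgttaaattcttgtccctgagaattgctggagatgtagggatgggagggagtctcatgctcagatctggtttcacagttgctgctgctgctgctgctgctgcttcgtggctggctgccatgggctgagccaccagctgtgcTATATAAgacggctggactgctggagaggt

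The motif TATATAA stands 30 to 24 bases before the start site. Of 32851 RefSeq promoter windows of the same length, 998 (3.04%) hold these letters on either strand. A match is a description of the letters and not of a bound site.

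The table held 80094 Cilp reads, spread over 916 of the 1479 cells, with up to 2627 in a cell. Cilp2, the paralog on chromosome 8 (69880369 to 69887687, minus strand), had 593 reads in 26 cells. Most of the Cilp2 reads fell into a few cells. Clusters 7 and 5, both low in Cilp, held more of them than cluster 8, nearly all in 1 cell of each, and cluster 8 held 81 in 8 cells.

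Averaged over plates and lines, Cilp had its highest mean in cluster 8. Cluster 9 had the next mean, but its place is not settled against cluster 8 or cluster 6, because it was found with at least 3 cells on 2 plates and lines that disagree. The mean level in cluster 8 was 651.2 in Acta2GFP cells of plate bladder_515s, 409.5 in C57BL6 cells of bladder_443s, 333.5 in Cspg4dsRED cells of bladder_352s and 1688.7 in Cspg4dsRED cells of bladder_689s. It was 335.7 in PdgfraGFP cells of bladder_689s, and in PdgfrbGFP cells it was 383.0 on bladder_074s, 768.9 on bladder_515s and 381.4 on bladder_881s. The highest of these rests on 4 cells, and the other 7 lay between 333.5 and 768.9. Together they gave 619 ± 461 (SD, n = 8 plates and lines).

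Cluster 6 had 172.2 ± 44.7 (SD, n = 6). Its levels were 116.1 in Acta2GFP, 168.5 in C57BL6 and 218.6 in PdgfraGFP cells, and 121.4, 199.5 and 209.2 in PdgfrbGFP cells of bladder_074s, bladder_515s and bladder_881s. All 6 lay below the lowest of cluster 8, and cluster 8 was the higher in 6 of 6 plates and lines that held at least 3 cells of both. Left out by this limit were Cspg4dsRED cells of cluster 6. On bladder_352s there was 1, at 451.6 against 333.5 in cluster 8, and on bladder_689s there were 2, at 906.7 against 1688.7. Among the 8724 genes that reached a level of 20 in some cluster, 0.138% had every plate and line of cluster 8 above every one of cluster 6.

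Cluster 3, the largest with 23.3% of all cells, reached 43.7 ± 28.7 (SD, n = 6). The lowest value was 12.6 in Acta2GFP cells and the highest 93.1 in PdgfraGFP cells, so that all 6 were below all 6 of cluster 6 (0.252% of the 8724 genes had this order). Cluster 11, which was found mostly in Acta2GFP cells, had 59.1 ± 52.5 (SD, n = 3), from 13.1 in PdgfrbGFP cells of bladder_515s to 116.3 in C57BL6 cells. Without C57BL6, which had 3 of its cells, it was 30.56, below the 40.68 of cluster 3 in the same setting. It was above cluster 3 in 2 of 3 plates and lines and below cluster 6 in 3 of 3.

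Cluster 9, which came mostly from Cspg4dsRED cells, gave no firm level. Its 85 Cspg4dsRED cells of bladder_352s averaged 150.95, whereas 3 C57BL6 cells averaged 974.4, which gives 563 ± 582 (SD, n = 2). Cluster 8 was above it on bladder_352s (333.5) and below it in the C57BL6 cells (409.5), so these plates do not order clusters 8 and 9. The mean of cluster 9 was the higher per ERCC spike-in read (964.0 against 893.7) and with median-of-ratios size factors (663.3 and 659.0). It was also the higher when the medians of each plate and line were averaged (287.4 and 220.6). The same held without Cspg4dsRED of bladder_352s (974.4 and 659.8) or of bladder_689s (562.7 and 466.2). In the other settings it was the lower, such as with at least 10 cells (150.95 and 466.2) and without C57BL6 (150.95 and 648.9). Over all cells of clusters 9 and 8 the means were 175.02 and 496.8 and the medians 0 and 10.8. In the C57BL6 cells, the 1 plate and line with enough cells of both, cluster 9 was above cluster 6. Without C57BL6 the order turned, with 150.95 in cluster 9 and 172.96 in cluster 6, and over all cells of each cluster the means were 175.02 and 181.03.

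The remaining clusters were low. Cluster 2 had 16.49 ± 17.96 (SD, n = 6), cluster 1 had 3.93 ± 4.96 (SD, n = 6), cluster 5 had 3.23 ± 2.30 (SD, n = 5) and cluster 7 had 3.12 ± 2.85 (SD, n = 7). Cluster 4 had 1.85 on the single plate and line with enough cells. Mural cluster 10 had 3.46 ± 3.53 (SD, n = 7). The means of clusters 1, 10, 5 and 7 lay within their SDs of each other. Within plates and lines cluster 1 was above cluster 10 in 3 of 5 and cluster 5 above cluster 7 in 1 of 5, whereas cluster 10 was above cluster 5 in 4 of 4, at a level of a few reads. Cluster 2 was above cluster 1 in 4 of 5 plates and lines and below cluster 3 in 4 of 5.

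**Figure D1:**
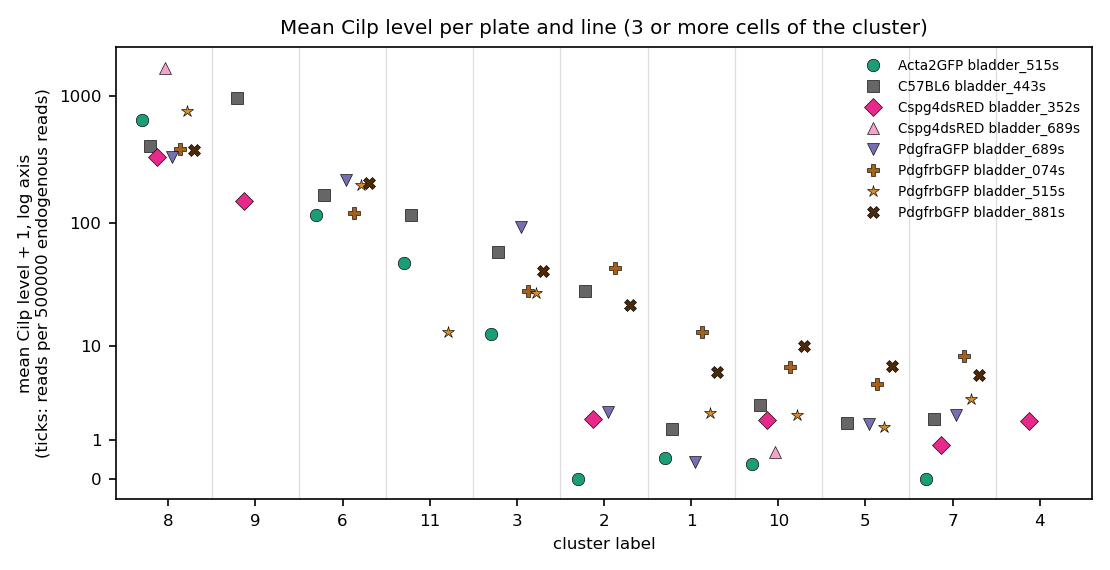
Each symbol is the mean Cilp level of the cells of a cluster (x axis, ordered by mean level) on a plate and line, on a log axis of level + 1 with ticks in reads per 500000 endogenous reads, for combinations with at least 3 cells. Cluster 8 lies between 333.5 and 1688.7, cluster 9 at 150.95 and 974.4, cluster 6 between 116.1 and 218.6, cluster 3 between 12.6 and 93.1, and clusters 1, 5, 7 and 10 all below 14.

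The mean of cluster 8 was 6.43-fold that of the mean of the other fibroblast clusters (2.68 on the log2 scale). Within plates and lines this log2 ratio averaged 3.16 ± 1.06 (SD, n = 7), from 1.28 in C57BL6 cells to 4.46 in Acta2GFP cells, and was above 0 in all 7. The low value in C57BL6 goes with its 3 cluster 9 cells. Without that plate and line the log2 ratio of the means rose from 2.68 to 3.79.

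Cilp did not mark whole clusters. Within cluster 8 the cells ranged from 0 to 3569, with a median of 10.8 and quartiles of 1.66 and 735. In cluster 6 the median was 8.07 and the upper quartile 151.8, and in cluster 3 the median was 2.35 while the highest cell reached 1956. Few cells lay between low and high. Of the 1354 fibroblast-cluster cells, 1101 lay under 20 and 60 between 20 and 100, and the others were higher. In cluster 8, 5 cells lay between 20 and 100 and 75 above 100, whereas cluster 3 had 22 and 30 and cluster 11 had 4 and 9, without such a gap.

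**Figure D2:**
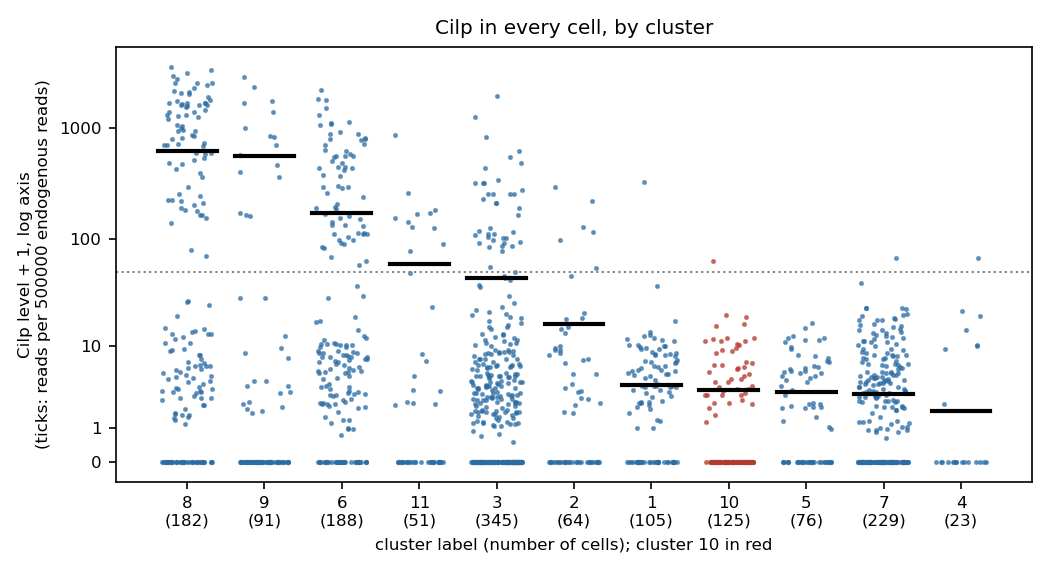
Each point is a cell, with cluster on the x axis (number of cells in brackets) and Cilp level + 1 on a log axis with ticks in reads per 500000 endogenous reads; black bars are the means over plates and lines and the dotted line marks a level of 50. In clusters 8 and 9 the cells split into a low group and a group well above the line, in clusters 6, 3 and 11 they reach across it with more cells in between, and clusters 1, 5, 7, 4 and 10 have at most 1 cell each above it.

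A level of 50 was taken as a working limit, and 220 fibroblast-cluster cells were at or above it. Their level still differed between clusters. The median of these cells was 968 (quartiles 431 and 1670) for the 77 cells of cluster 8, 765 for the 16 cells of cluster 9, 374 for the 67 cells of cluster 6 and 177.3 for the 40 cells of cluster 3. The 11 cells of cluster 11 had quartiles of 126.4 and 176.9. Within plates and lines the median of these cells was higher in cluster 8 than in cluster 6 in 6 of 6, from 795.5 against 585.1 in PdgfraGFP to 1817.5 against 159.1 in Acta2GFP cells. Clusters 5 and 7 held 0 and 1 of them, and the highest cell of cluster 5 reached 16.7.

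Because depth differed between plates, each cell was thinned to 50000 endogenous reads (6 shallower cells were left out) before shares of cells were compared. After thinning, 42.3% of cluster 8 cells had at least 5 Cilp reads (77 cells, exact Clopper-Pearson 95% interval 35.03 to 49.84, for counting error only). The share was 36.4% in cluster 6 (68 cells, 29.5 to 43.7), 23.5% in cluster 11 (12 of 51, 12.8 to 37.5), 17.6% in cluster 9 (16 of 91, 10.40 to 26.98) and 11.7% in cluster 3 (40 cells, 8.46 to 15.5). The intervals of clusters 8 and 6 overlap, and within plates and lines the share was the higher in cluster 6 in 4 of 6. The exceptions were C57BL6 (47.4% against 55.6% in cluster 8) and PdgfrbGFP cells of bladder_074s (15.4% against 31.4%). Cluster 2 had 9.38% (6 of 64), cluster 4 had 4.76% (1 of 21), cluster 7 had 1.32% (3 cells) and cluster 1 had 0.952% (1 cell). None of the 76 cells of cluster 5 had as many reads, and the upper limit there is 3.95% from a floor of 3 counts, or 4.74% from the exact interval. In mural cluster 10 the share was 0.8% (1 cell, median depth 128369 against 198156 in cluster 8).

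Cluster 8 made up 12.3% of all cells and held 56.7% of the summed Cilp level. Cluster 6 held 21.3%, cluster 9 held 9.99% and cluster 3 held 8.00%. The 10 fibroblast clusters together held 99.8%. Among fibroblast-cluster cells the mean level was 117.5, and the 10% of cells with the most Cilp held 90.1% of the summed level. Over the 1377 genes whose mean level was within 2-fold of that of Cilp, Cilp included, the median share held by such cells was 40.5%, and 2 genes were more concentrated than Cilp. Cells at or above 50 made up 16.2% for Cilp and a median of 48.01% for these genes. Cluster labels accounted for 16.4% of the variance of log2(level + 1) of Cilp over fibroblast-cluster cells, against a median of 5.43% for the same genes, with 67 genes higher, and plate and line accounted for 5.28%. These shares describe the gene by values that the clustering had already used.

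Reads at low level need care. With a single read as the threshold, 39.5% of fibroblast-cluster cells and 21.6% of mural cluster 10 cells had Cilp after thinning (64.1% and 38.4% without thinning). For each cell of clusters 1, 5, 7 and 10 the Cilp reads in all other wells of its plate row and column were therefore summed, and the cells of each plate were ranked by this sum and divided into 3 groups of like size (plates with fewer than 9 such cells were left out). In clusters 1, 5 and 7 a Cilp read was found in 41.6% of the cells with the lowest sums (exact 95% interval 33.3 to 50.3), 68.1% of the middle group (59.6 to 75.9) and 81.9% of the cells with the highest sums (74.4 to 87.9). In cluster 10 the shares were 10.3% (4 of 39), 39.5% (15 of 38) and 58.5% (24 of 41). The order rose or stayed level within each plate, apart from bladder_352s in clusters 1, 5 and 7, which has 13 such cells. The 532 cells of these 4 clusters below a level of 50 held 1113 reads, equal to 0.124% of the reads in their rows and columns (0.0353 to 0.178% by plate). The origin of these few reads was not tested, and a Cilp level of a few reads is not read as expression here. Another 3 cells of these clusters lay above 50, at 62.7 (cluster 10), 67.7 (cluster 7) and 328.6 (cluster 1).

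**Figure D3:**
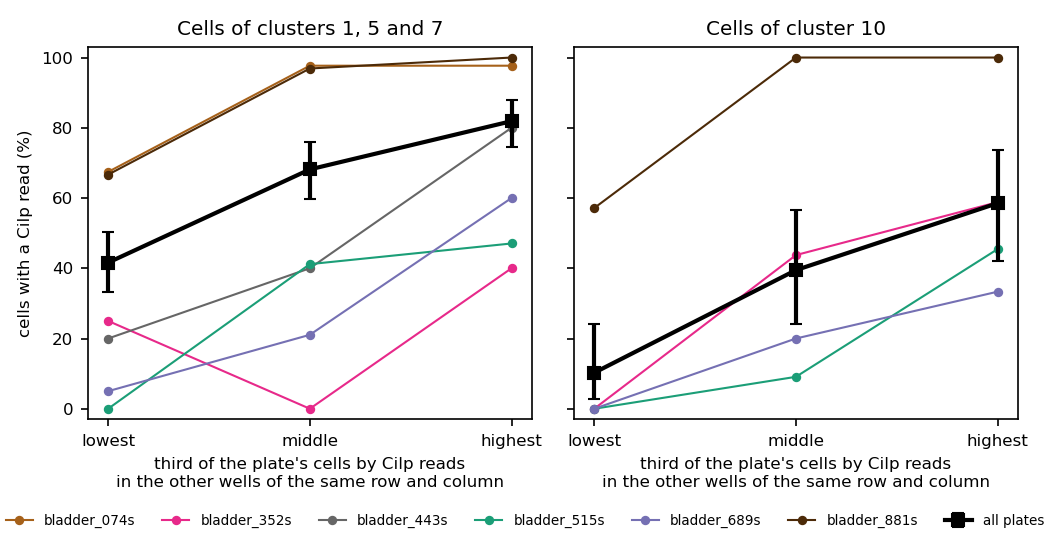
The y axis is the percentage of cells with at least 1 Cilp read and the x axis the 3 groups of cells of a plate by the Cilp reads of the other wells in their row and column, for clusters 1, 5 and 7 (left) and mural cluster 10 (right); thin lines are plates and the black line all plates with exact 95% intervals. The share rises from 41.6% to 81.9% on the left and from 10.3% to 58.5% on the right.

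The mean level over all fibroblast-cluster cells was 88.8 in Acta2GFP, 98.97 in C57BL6 and 97.5 in PdgfraGFP cells. It was 130 in Cspg4dsRED cells of bladder_352s and 89.5, 191.98 and 112.4 in PdgfrbGFP cells of bladder_074s, bladder_515s and bladder_881s. The 10 fibroblast-cluster cells of Cspg4dsRED on bladder_689s stood apart at 857, and 4 of these 10 were in cluster 8. With them the mean was 208.3 ± 264.2 (SD, n = 8), and without them 115.6.

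Lines that share a plate can be set side by side. On bladder_515s, PdgfrbGFP cells had about the level of Acta2GFP cells in cluster 8 (768.9 and 651.2) and higher means in clusters 6 (199.5 and 116.1) and 3 (27.5 and 12.6). Cluster 6 held 9 and 6 cells there, with medians of 134.4 and 130.6. Cluster 11 went the other way, with 13.1 over 4 PdgfrbGFP cells and 48.02 over 43 Acta2GFP cells. Cluster 8 made up 21.6% of PdgfrbGFP and 9.40% of Acta2GFP fibroblast-cluster cells, beside mean levels of 191.98 and 88.8 over all of them. The share with at least 5 reads after thinning was 20.6% and 17.1%. On bladder_689s, PdgfraGFP cells had 335.7 in cluster 8 over 19 cells and Cspg4dsRED cells 1688.7 over 4 cells, and with so few cells of the latter no difference between these lines is read from it. Other differences of line and plate cannot be told apart.

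The share of cells with at least 5 reads within cluster 8 was 4 of 11 in Acta2GFP, 10 of 18 in C57BL6, 6 of 10 and 4 of 4 in Cspg4dsRED, 5 of 19 in PdgfraGFP, and 16 of 51, 16 of 35 and 16 of 34 in PdgfrbGFP. High and low cells of cluster 8 were thus found in each line with the exception of the 4 Cspg4dsRED cells of bladder_689s, all of which were high.

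Next, genes whose mean level followed that of Cilp over the 11 clusters were sought. The 5 most similar, by Pearson correlation of log2(level + 1) over 11 clusters and among genes that reached 20 in some cluster, were Ifi207 (r = 0.95), Vav3 (0.92), Hmcn2 (0.89), P2ry1 (0.88) and Cmklr1 (0.85). The points share libraries and the clusters were drawn from these genes, so no p is given. Hmcn2 encodes hemicentin 2, a large matrix protein, and had 114.1 ± 143.3 (SD, n = 8) in cluster 8, 118.7 ± 150.3 (SD, n = 2) in cluster 9 and at most 9.98 (cluster 6) in the others. P2ry1, a receptor for ADP, had 37.8 ± 67.9 (SD, n = 8) in cluster 8 and 33.1 ± 19.8 (SD, n = 6) in cluster 6. Ifi207, of the interferon-inducible PYHIN family, had 27.2 ± 26.5 (SD, n = 8) in cluster 8 and 30.9 ± 27.3 (SD, n = 2) in cluster 9. Vav3, a guanine nucleotide exchange factor, and Cmklr1, the receptor for chemerin, had their highest means in cluster 9 (24.1 ± 21.6 and 20.2 ± 21.1, SD, n = 2). The SD was about as large as the mean in most of these values. From cell to cell, by the Spearman correlation described next, these 5 genes had rho between -0.04 (P2ry1) and 0.18 (Hmcn2) with Cilp. P2ry1 and Cmklr1 each overlap an antisense gene. These levels are not corrected for gene length, so they are compared within a gene only.

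**Figure D4:**
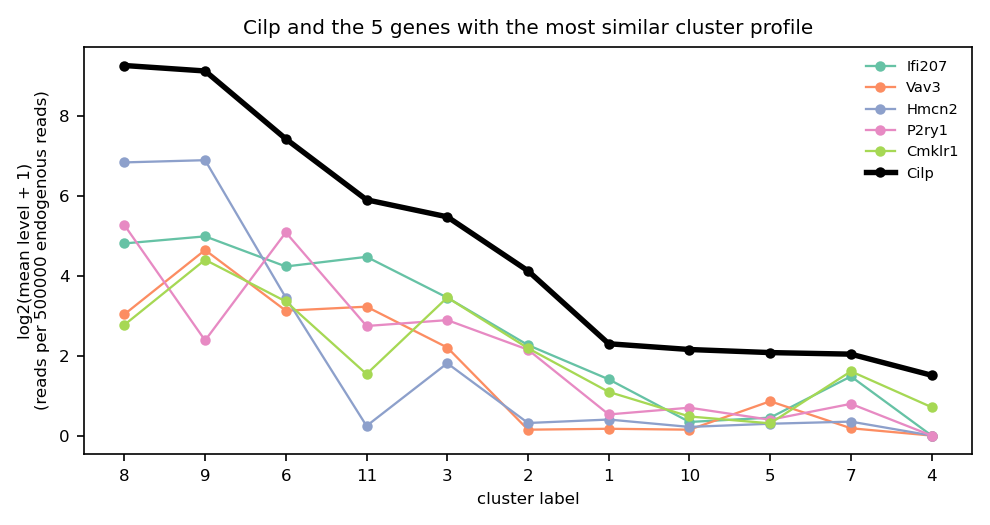
The x axis gives the clusters in order of Cilp level and the y axis log2(mean level + 1), with levels in reads per 500000 endogenous reads averaged over plates and lines; the thick line is Cilp and the thin lines are the 5 genes with the most similar profile. All 6 genes lie below 3 in clusters 1, 10, 5, 7 and 4, and Hmcn2 falls back in cluster 11 while Cilp does not.

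Genes that rose and fell with Cilp from cell to cell were described by Spearman correlation over the 361 fibroblast-cluster cells of PdgfrbGFP on bladder_074s, for the 12620 genes with a read in at least 10% of them. The cells share a plate, and in counts this sparse a weak correlation is no finding. Of all genes, 24 had rho of at least 0.2 (0.19%) and 2 had rho of at most -0.2 (0.0158%). The 15 highest and 10 lowest genes were named by rule and then read in the other 6 plates and lines with at least 100 fibroblast-cluster cells, which had no part in the choice.

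Gdf10, a secreted ligand related to the bone morphogenetic proteins, had the highest rho. It was 0.30 in the 361 cells, and in the others it was 0.23 in Acta2GFP, 0.24 in C57BL6, 0.11 in Cspg4dsRED (bladder_352s) and 0.25 in PdgfraGFP cells, and 0.23 and 0.33 in PdgfrbGFP cells of bladder_515s and bladder_881s. It was thus above 0 in 6 of 6. With ranks centred within clusters it was 0.25 in the 361 cells, so a positive value was also found inside clusters. After thinning to 50000 reads it was 0.16, below the 0.23 of Errfi1 described next. Gdf10 itself had 968 in cluster 8, 534 in cluster 9 and 210.6 in cluster 6, and 5.4 in cluster 5. Its order over clusters was not that of Cilp, since it had 478 in cluster 4, where Cilp was at a few reads, and 241.2 in cluster 11.

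Another 4 of the 15 rising genes were above 0 in 6 of 6. Fibin, a secreted protein first described in fin bud formation, had 0.23 in the 361 cells and 0.12 to 0.39 in the others. Cdh13, which encodes T-cadherin, had 0.25 and 0.10 to 0.27. Errfi1, an inhibitor of the epidermal growth factor receptor, had 0.24 and 0.07 to 0.29, and Cst3, the protease inhibitor cystatin C, had 0.25 and 0.02 to 0.26. Cdh13 overlaps 5 other annotated genes and Errfi1 overlaps 1700045H11Rik, so their counts are uncertain. So 5 of 15 kept the sign in all 6, where 3.03% of all genes above 0 in the 361 cells did.

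The other 10 rising genes were Fth1, Sdf2l1, Trim3, Hcfc1, Unc5a, Actb, Gm37376, Chadl, Qpctl and Gadd45g, with rho between 0.22 and 0.27 in the 361 cells. Their median over the other 6 plates and lines lay between -0.07 (Trim3 and Actb) and 0.14 (Gadd45g), and each was below 0 in at least 1. Gm37376 lies within Malat1 on the opposite strand, Chadl overlaps L3mbtl2, Qpctl overlaps Fbxo46, Unc5a overlaps Hk3 and Trim3 overlaps Gm45632, so their counts are uncertain.

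Of the 10 falling genes, Scara5 alone was below 0 in 6 of 6. Scara5, a scavenger receptor that takes up ferritin, had -0.19 in the 361 cells and -0.31 to -0.07 in the others. Its level was 295.2 in cluster 8 and 454 in cluster 6, against 1125 in cluster 7, 983 in cluster 1 and 903 in cluster 3. The clusters did not follow the reverse of Cilp throughout, since Scara5 was at 3.06 in cluster 4 and 104.1 in cluster 5, both low in Cilp, and at 605 in cluster 9. The other 9 (Plekho2, Hmgb3, Nemp2, Cyp8b1, Satb1, Axl, Mdc1, Rpl17-ps8 and Pym1) had -0.22 to -0.18 in the 361 cells and medians of -0.05 to 0.04 in the others. Rpl17-ps8 is a pseudogene of a ribosomal protein gene and lies in Heph, and Satb1 overlaps 6 other annotated genes, so their counts are uncertain. The share of genes below 0 in the 361 cells that were below 0 in all 6 others was 4.07%.

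Since ranks among low cells rest on the few reads described above, the correlation was also taken with every Cilp level under 50 set to 0, an alternative added after the data were seen. Then 34 genes had rho of at least 0.2 (0.269%) and 6 had at most -0.2 (0.0475%). Of the 15 highest, 10 were above 0 in all 6 other plates and lines, against 3.9% of all genes above 0. Of the 10 lowest, 6 were below 0 in all 6, against 4.76%. The median over these 15 genes of each gene's median rho in the other 6 was 0.22, near the 0.24 in the 361 cells, whereas it was 0.04 against 0.24 for the 15 named without this step. Only 3 of the 15 and 1 of the 10 genes were shared between both ways of ranking.

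Gdf10 was again first under this ranking (0.32, and 0.15 to 0.28 in the others). Another 9 of the 15 were above 0 in 6 of 6. Mfap4, a microfibril-associated protein, had 0.28 (0.17 to 0.37), and Itgbl1, an integrin beta-like protein, had 0.27 (0.05 to 0.46). Aspn, the small proteoglycan asporin, had 0.24 (0.06 to 0.34), and Svep1, a large adhesive matrix protein, had 0.24 (0.05 to 0.33). Ccn2, a matricellular protein, had 0.23 (0.10 to 0.33), Gpx3, a secreted glutathione peroxidase, had 0.23 (0.06 to 0.35), and Ace, the angiotensin converting enzyme, had 0.23 (0.10 to 0.39). Errfi1 had 0.29 (0.04 to 0.26). The noncoding gene Gm26889 had 0.24 (0.09 to 0.27) but lies within Svep1 on the other strand, so the reads of this pair may not be told apart. Aspn lies within Cenpp, Mfap4 overlaps Mapk7, Ccn2 overlaps Gm15270, Ace overlaps Gm11651 and Itgbl1 overlaps 2 other annotated genes, and these counts share that limit, as do those of Errfi1. Dpt, which encodes the matrix protein dermatopontin, had 0.28 but -0.12 in Cspg4dsRED cells. Fhl2, Jam2, 4930566F21Rik and Trim3 (0.23 to 0.28) were likewise below 0 in at least 1 of the other 6, and these 4 and Dpt also overlap other annotated genes.

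Scara5 was also the lowest under this ranking (-0.29, and -0.37 to -0.08 in the others). Dkk3, a secreted protein of the Dickkopf family, had -0.24 (-0.39 to -0.07). Osr1, a transcription factor of urogenital mesenchyme, had -0.21 (-0.18 to -0.07). Efemp1, the elastic fibre protein fibulin 3, had -0.20 (-0.30 to -0.13), Ifi27l2a, an interferon-induced gene, had -0.23 (-0.26 to -0.04) and Krtdap had -0.19 (-0.23 to -0.18). Plac8, Cd34, Pltp and Gm16897, which is antisense to Cd34, were below 0 in the 361 cells (-0.25 to -0.18) and above 0 in 1 of the other 6. Osr1 overlaps 1700022H16Rik and Pltp overlaps Ctsa.

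**Figure D5:**
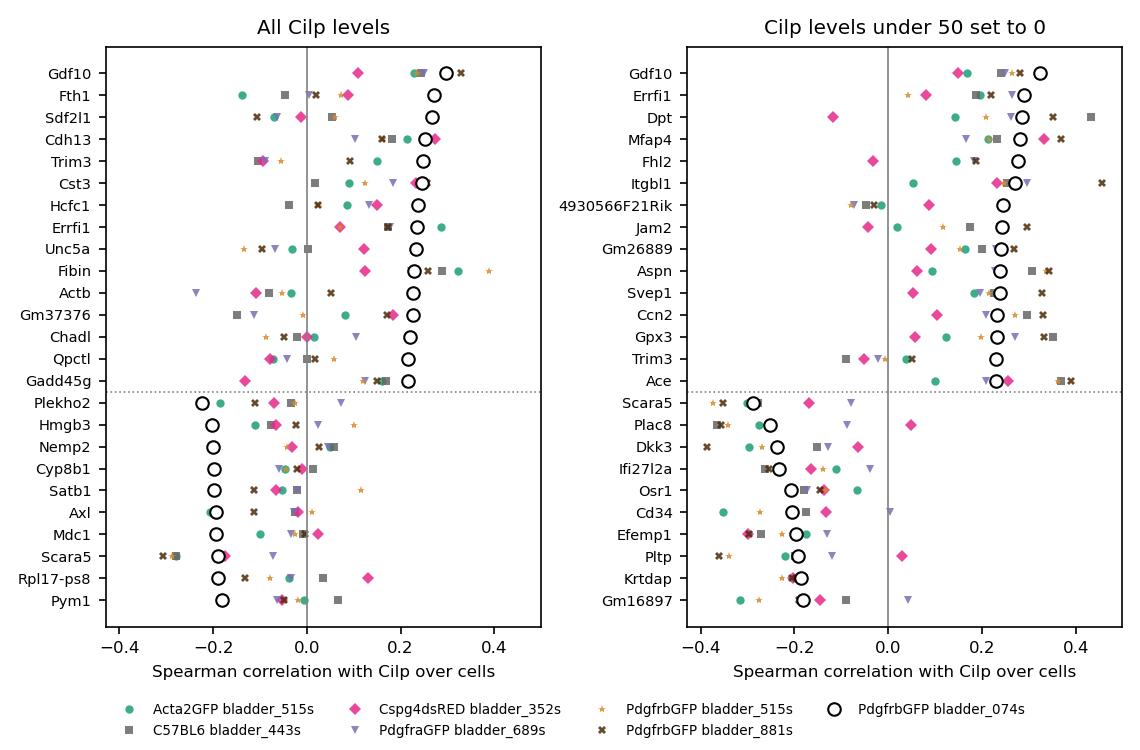
The x axis is the Spearman correlation with Cilp over fibroblast-cluster cells for the 15 highest and 10 lowest genes (y axis, divided by the dotted line), with all Cilp levels (left) or levels under 50 set to 0 (right); open circles are the 361 PdgfrbGFP cells of bladder_074s that chose the genes and filled symbols are the 6 other plates and lines. On the left Gdf10, Cdh13, Cst3, Errfi1, Fibin and Scara5 keep their sign in all 6 and Gadd45g in 5 of 6. On the right 10 of 15 and 6 of 10 genes keep their sign in all 6.

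Gene lists related to what CILP is known for were read in the same way, each by its count and median beside the median of 0.004 over all 12620 genes. Of 30 genes of cartilage and tendon matrix, 12 had enough cells with a read, with a median rho of 0.056, and 1 reached 0.2. This was Chadl (0.22, below 0 in 4 of 6 others). Thbs1, which encodes thrombospondin 1, had 0.198 and was above 0 in 6 of 6, and Ecm2 had 0.09. The list members Acan, Matn1, Matn3, Col9a2, Col11a2, Scx, Tnmd and Cnmd, most of them typical of cartilage or tendon, were at 0 in the 361 cells. On other plates Cnmd, which encodes chondromodulin, was read in cluster 8, in 11 of 34 PdgfrbGFP cells of bladder_881s, 4 of 19 PdgfraGFP cells and 1 of 35 PdgfrbGFP cells of bladder_515s, while Tnmd was read there in 1 cell.

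Among 15 TGF-beta ligands, receptors and latent binders the median was -0.007, and none reached 0.2 in either direction. Smad4 had 0.14, Ltbp2 had 0.11 and Smad3 had -0.09, and Ltbp2, a latent TGF-beta binding protein of the matrix, was above 0 in 6 of 6, as were Ltbp1 and Smad7 (3 of 15 members, 20.0%, against 2.46% of all genes). For 12 TGF-beta responsive genes the median was -0.028 with none at 0.2, and with levels under 50 set to 0 it turned to 0.041 with Ccn2 at 0.23. Eln (elastin) had 0.16 and Ccn2 0.12 over all levels, and both were above 0 in 6 of 6 (16.7% of the list), while Fn1 (fibronectin) had -0.11.

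In the IGF system 8 of 10 genes were read, with a median of 0.039 and none at 0.2. Igf1, the growth factor itself, had 0.13, Igfbp7 had 0.12 and Igfbp6 had 0.13, and the first 2 of these were above 0 in 6 of 6 (2 of 8 members). For pyrophosphate handling, 7 of 8 genes had a median of -0.008, with Slc20a1 at -0.07 and Ank and Alpl at 0.06. Of these 7, 1 was above 0 in 6 of 6 (14.3%, against 2.46% of all genes), and 0 with levels under 50 set to 0. For genes of injured heart fibroblasts 6 of 11 were read with a median of -0.068, which turned to 0.031 with levels under 50 set to 0, and over all levels Ltbp2 (0.11), Fn1 (-0.11) and Ccn5 (0.10) were the largest. Ltbp2, which is also on the TGF-beta list, and Ccn5 were above 0 in 6 of 6 (33.3% of the 6 read, against 2.46% of all genes). Meox1, Ddah1, Comp, Chad and Thbs4, which are on that list, had a read in under 10% of the 361 cells.

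For 12 adventitial fibroblast genes the median was -0.002, with Dpt at 0.13, Sema3c at -0.12 and Cd55 at -0.10. Members nonetheless kept a sign in the other 6 plates and lines. Pi16, Ly6a, Ly6c1 and Cd34 were below 0 in 6 of 6 (33.3% of the list, against 3.2% of all genes), with -0.07 to -0.01 in the 361 cells, and Penk was above 0 in 6 of 6. With levels under 50 set to 0 the median was -0.026, Dpt had 0.28 and Cd34 -0.20, and 3 members were below 0 in 6 of 6 (25%, against 3.11% of all genes) and 2 above 0 in 6 of 6 (16.7%, against 2.85%). For 11 immediate-early and heat shock genes, which respond to tissue dissociation, the median was 0.063, with Egr1 at 0.11 (above 0 in 5 of 6), Hspa1a at -0.13 and Dnajb1 at -0.11. Neither list had a member at 0.2 over all levels. With levels under 50 set to 0 the median of the immediate-early and heat shock genes was 0.096, that of cartilage and tendon matrix 0.083 (Thbs1 at 0.21) and that of all genes 0.013. The medians of the TGF-beta ligand, IGF and pyrophosphate lists were then 0.017, 0.042 and 0.008.

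Markers of other cell types were set beside these values. The median rho was 0.001 over 6 fibroblast markers (Dcn 0.15, Col1a2 -0.09, Lum 0.07), -0.024 over 5 mural markers (Myh11 -0.08, Acta2 0.06, Des -0.05) and -0.042 over 3 sub-epithelial fibroblast markers (Tnc -0.08, Cxcl14 -0.04, Bmp5 -0.00). In the other 6 plates and lines, 2 of the 6 fibroblast markers were always above 0 (33.3%, against 2.46% of all genes). Another 1 was always below 0 (16.7%, against 3.2%). Of 4 endothelial markers, 2 were read, and Kdr had 0.16 and was above 0 in 6 of 6, while Pecam1 had -0.01 and Cdh5 was at 0 in the 361 cells. Immune, urothelial, glial and mesothelial markers had a read in too few cells. Over the 7 plates and lines the correlation of Cilp with the number of genes detected lay between -0.12 and 0.07, and with depth between -0.14 and 0.18. With both held constant in a partial correlation, each of the 25 named genes kept its sign in the 361 cells and moved by less than the SD between plates and lines.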

How the data were processed

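Counts of reads per gene were deposited by the authors as 1 table of raw counts over 46517 Ensembl genes and 92 ERCC spike-ins, in 1479 cells. Tools named in the submitters' processing notes are bcl2fastq, Bowtie, Bowtie2, featureCounts and Subread, with GRCm38, and the methods of the study add TopHat2, trim galore and samtools. The gene models counted and the strand setting are not given in the sources used here, so reads of overlapping genes may not be told apart. Symbols (for 46005 identifiers), coordinates and overlaps came from GENCODE M21. The table held 0 columns without a sample. The cluster labels are the authors', made from the same counts.

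Levels are reads per 500000 endogenous reads, the scale of the study. Cells were thinned by hypergeometric sampling to 50000 reads for shares. SmartSeq2 reads are not independent molecules, so intervals and floors (3 counts) cover counting error only. No test between clusters or lines was made, and outlying values were only marked by Dixon's critical value: Cilp was chosen on these values, and no mouse is labelled. Named genes are Cilp, Cilp2, the 15 highest and 10 lowest Spearman rho with Cilp in the largest plate and line, the 5 closest cluster profiles and the 3 members of each list with the largest absolute rho; other names, and those ranked with levels under 50 set to 0, were chosen after their values were seen. Cilp, the lists and the markers were chosen with earlier results of these data known. The correlation code was tested on simulated data. Promoter sequence came from RefSeq (GRCm38.p6). Python 3.11.15, numpy 2.4.6, scipy 1.17.1, pandas 2.3.3 and matplotlib 3.10.9 were used.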

Additional observations from a re-analysis of the deposited data

Results flagged for a closer look

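In 34 groups of 5 to 8 plates and lines, the value farthest from the others was compared with Dixon's critical value, which chance passes in about 1 in 20 groups. In 5 cases it was passed. The Cilp level in cluster 8 of Cspg4dsRED cells on bladder_689s (1689, 4 cells) and the level over the fibroblast-cluster cells of the same plate and line (857, 10 cells) stood above the other 7, and both rest on the same few cells. The rho of Gadd45g with Cilp was -0.13 in Cspg4dsRED cells of bladder_352s and above 0 in the other 6 plates and lines. Nemp2 (-0.20) and Cyp8b1 (-0.20) stood apart in the PdgfrbGFP cells of bladder_074s, which are the cells that chose both genes.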

How the results depend on the processing

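The log2 ratio of cluster 8 to the other fibroblast clusters (2.68) stayed within 1 SD under each alternative for scaling, averaging and cell minimum. It ran from 2.40 (mean of the medians of each plate and line) to 3.21 (mean over all cells). With each plate and line left out in turn it ranged from 2.04 to 3.79, the highest without C57BL6. Cluster 4 has 1 plate and line and so no SD between plates and lines, and over all cells its level rose from 1.85 to 6.74. Of the levels of the other clusters under these alternatives, all but 5 moved by less than 1 SD. The exceptions were cluster 6 (304.8 per ERCC read and 47.96 as the mean of the medians of each plate and line), cluster 3 (80.4 and 1.86) and cluster 1 (9.52 with at least 10 cells). The SD of cluster 9 (582) rests on 2 values, so its fall from 563 to 175.02 over all cells still counts as less than 1 SD. The mean of cluster 9 passed that of cluster 8 under 3 of these alternatives and without Cspg4dsRED of bladder_352s or of bladder_689s. The share of fibroblast-cluster cells with a read (39.5%) was 64.1% without thinning, 16.6% at 5 or more reads and 14.5% at 10 or more, and 35.8 to 41.1% with a plate and line left out. The mean over plates and lines (208.3) was 619 in cluster 8 cells only and ranged from 115.6, without Cspg4dsRED of bladder_689s, to 225.3 with each left out.

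The share of genes at rho of at least 0.2 (0.19%) was 0.317% with Pearson correlation, 0.111% with the partial correlation on genes detected and depth, and 0.0238% after thinning. The share at -0.2 or lower (0.0158%) was 0.0475%, 0.0555% and 0.00792% under the same settings, 0.0396% without cluster 5, 0.0475% with levels under 50 set to 0, and 0.0198% with no filter beyond 3 cells with a read, where 4 genes in place of 2 reached it. The other plates and lines have fewer cells, so that chance correlations are larger there. Their shares at 0.2 or more and at -0.2 or less were 1.63% and 1.85% in Acta2GFP, 0.959% and 0.547% in C57BL6, 1.96% and 1.45% in Cspg4dsRED, 1.24% and 0.388% in PdgfraGFP, and 0.911% and 0.626% (bladder_515s) and 1.18% and 1.05% (bladder_881s) in PdgfrbGFP cells. The cause of these moves was not tested.

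Of the rho values of the 25 named genes, 45 changed sign in another plate and line and none under the alternatives within the 361 cells. In Acta2GFP cells of bladder_515s Fth1 -0.14, Sdf2l1 -0.070, Unc5a -0.032, Actb -0.035, Qpctl -0.073, Nemp2 0.049. In C57BL6 cells of bladder_443s Fth1 -0.046, Trim3 -0.10, Hcfc1 -0.038, Actb -0.081, Gm37376 -0.15, Chadl -0.022, Nemp2 0.059, Cyp8b1 0.013, Rpl17-ps8 0.034, Pym1 0.067. In Cspg4dsRED cells of bladder_352s Sdf2l1 -0.012, Trim3 -0.094, Actb -0.11, Chadl -0.00062, Qpctl -0.078, Gadd45g -0.13, Mdc1 0.023, Rpl17-ps8 0.13. In PdgfraGFP cells of bladder_689s Sdf2l1 -0.064, Trim3 -0.090, Unc5a -0.067, Actb -0.24, Gm37376 -0.11, Qpctl -0.043, Plekho2 0.072, Hmgb3 0.023, Nemp2 0.045. In PdgfrbGFP cells of bladder_515s Trim3 -0.055, Unc5a -0.13, Actb -0.052, Gm37376 -0.0074, Chadl -0.088, Hmgb3 0.10, Satb1 0.12, Axl 0.011. In PdgfrbGFP cells of bladder_881s Sdf2l1 -0.11, Unc5a -0.10, Chadl -0.048, Nemp2 0.025. The cause was not tested.

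No paired analysis was possible by replicate number because these numbers only name cells within a cluster. Plates and lines do pair the clusters, and the values within them are given with the levels. Thinning gives the shares 1 depth of 50000 reads, whereas shares without thinning come from cells of unequal depth, with medians of 109301, 108489 and 128369 in clusters 2, 4 and 10 against 198156 in cluster 8.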
